A study of Mus musculus with 18 samples.

Results

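The cold response of brown adipose tissue (BAT) was set against that of subcutaneous white adipose tissue (sWAT), probe set by probe set, to find the genes that the depots regulated differently. The measure is an interaction, the log2 change from 28 to 6°C in BAT minus the log2 change from 28 to 6°C in sWAT. A positive value means that the change in BAT was the more positive one. It was computed from 12 of the 18 Affymetrix mouse arrays of the series, 3 for each of BAT at 6°C, BAT at 28°C, sWAT at 6°C and sWAT at 28°C, and the 6 arrays of mesenteric fat (mWAT) added only to the estimate of the spread. All groups were female mice of strain Sv129 aged 10 weeks with no transgene or drug named in the labels, and cold and warm groups differed in the 10 days spent at 6 or 28°C. Groups were read from the titles, because the tissue and temperature that the labels list among the other characteristics contradict them. The study describes interscapular BAT and inguinal sWAT of singly caged mice and 3 biological replicates. The labels do not say which arrays came from the same mouse, so the arrays were treated as independent.

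BAT burns fatty acids and glucose to make heat. In its mitochondria uncoupling protein 1 (Ucp1) lets protons return across the inner membrane without making ATP. Cold raises sympathetic noradrenaline release, which stimulates lipolysis and, through cAMP, transcription of thermogenic genes. Subcutaneous fat of warm mice mainly stores triglyceride, and in the cold it can acquire Ucp1-positive, mitochondria-rich beige adipocytes, a change called browning.

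The depots could be told apart by most of their markers, but not by all. The sWAT marker Lep lay between 8.57 and 12.72 log2 in BAT and between 11.34 and 12.98 log2 in sWAT. Tbx15, another sWAT marker, lay between 6.97 and 8.79 log2 in BAT and between 8.23 and 8.80 log2 in sWAT. For the BAT markers Ucp1, Lhx8, Cidea and Ebf2 the lowest BAT array exceeded the highest sWAT array by only 0.05 to 0.48 log2. Zic1, a transcription factor of classical brown fat, lay between 9.67 and 9.93 log2 on the 6 BAT arrays and between 2.81 and 3.74 log2 on the 6 sWAT arrays. Hoxc10, a positional gene of the hind trunk, lay between 3.23 and 4.25 log2 in BAT and between 9.31 and 9.80 log2 in sWAT. The interaction did not pass the threshold for Zic1 (-0.17, adjusted p = 0.844) or Hoxc10 (0.11, adjusted p = 0.976). The adipocyte gene Adipoq lay between 13.50 and 13.72 log2 in BAT and between 13.65 and 13.85 log2 in sWAT.

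Of 45037 probe sets, 163 had an interaction that passed the threshold, an adjusted p under 0.01 in limma with Benjamini-Hochberg adjustment over all of them (0.362% of those tested). Of these, 65 were higher, with a more positive cold response in BAT (52 genes, 0.144%), and 98 were lower (68 genes, 0.218%). Among the 163, 24 name no single gene. An unadjusted p under 0.05 was found for 6424 probe sets. The median interaction of all probe sets was 0.0027 log2, and the median half-width of its 95% confidence interval was 0.67 log2. The smallest interactions called were 0.96 log2 among the higher and -0.87 log2 among the lower. Leaving out any single BAT or sWAT array reduced the counts to between 19 (without BAT at 6°C array 3) and 42 (without sWAT at 28°C array 3) higher ones, and to between 25 (without BAT at 28°C array 2) and 93 (without sWAT at 28°C array 3) lower ones.

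The interaction shares its arrays with the response of each depot, so those responses are given beside it as descriptions of its parts. Taken alone, the BAT response passed the same threshold for 2377 probe sets (5.28%), 1372 higher at 6°C (3.05%) and 1005 lower (2.23%), and the sWAT response for 216 (0.48%), 209 higher (0.464%) and 7 lower (0.0155%). The called interactions were of few kinds. Each of the 65 higher probe sets had a called rise in BAT, and 64 of them had no called change in sWAT. Of the 98 lower ones, 72 had a called fall in BAT and none called in sWAT, 22 had a called rise in sWAT and none called in BAT, 3 had neither, and 1 fell in BAT and rose in sWAT. Over all probe sets the responses of BAT and sWAT, which share no arrays, had a correlation of 0.34 (a description across 45037 probe sets of the same arrays, which are not independent).

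**Figure D1:**
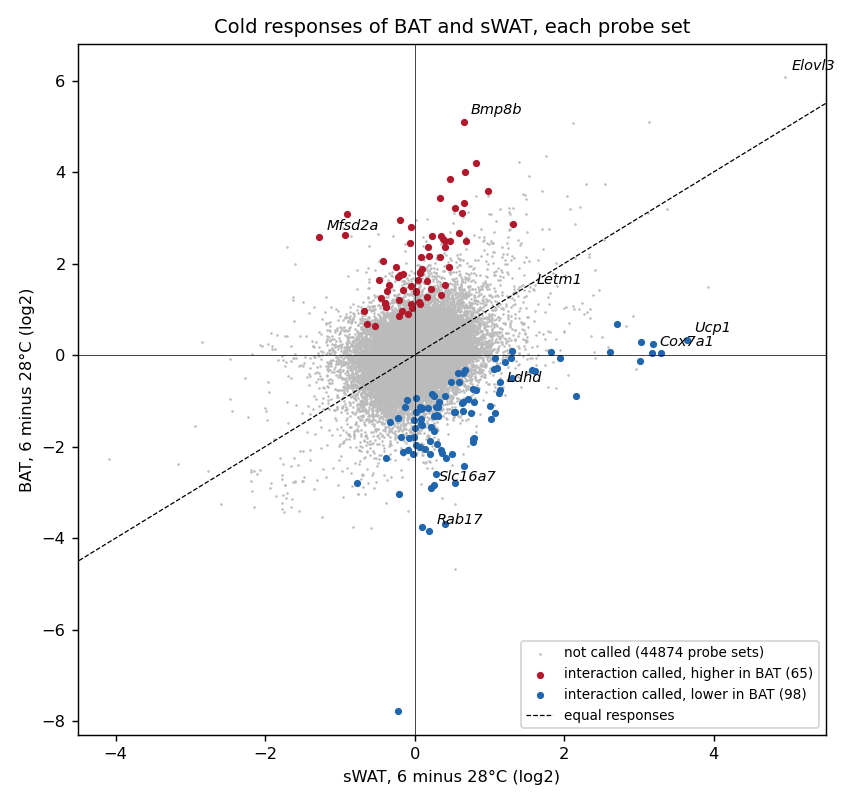
Each point is a probe set, plotted by its cold response in sWAT (horizontal axis, 6 minus 28°C, log2) and in BAT (vertical axis, 6 minus 28°C, log2); coloured points passed the threshold of the interaction and the dashed line marks equal responses. The 65 red points (higher in BAT) stand above the line, most of them near 0 on the sWAT axis, and the 98 blue points below it form an arm of falls in BAT and an arm of rises in sWAT that holds Ucp1 and Cox7a1.

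Promoters of called genes that hold a match of the motif marked in them are printed here, from the rises in BAT and the rises in sWAT. No gene that fell in BAT is shown. Acot12 and Mfsd2a had a called rise in BAT and no called change in sWAT, and Ucp1 and Cox8b had a called rise in sWAT and no called change in BAT. Each run is 250 bases before and 50 bases after the start of the gene on its own strand (RefSeq, GRCm38.p6), with matches in capitals. For Acot12, Mfsd2a and Ucp1 the capitals mark AGGTCA, the half-site of nuclear receptors such as the PPAR and thyroid hormone receptors, on either strand. For Cox8b they mark TATAAA, the letters of a TATA box.
Acot12, chr13:91741271-91741570, + strand: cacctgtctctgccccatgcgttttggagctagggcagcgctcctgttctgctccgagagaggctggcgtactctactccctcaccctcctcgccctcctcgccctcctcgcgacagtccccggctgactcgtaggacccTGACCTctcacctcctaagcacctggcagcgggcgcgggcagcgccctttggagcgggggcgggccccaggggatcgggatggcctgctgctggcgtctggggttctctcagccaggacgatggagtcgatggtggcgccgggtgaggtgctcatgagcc
Mfsd2a, chr4:122961139-122961438, - strand: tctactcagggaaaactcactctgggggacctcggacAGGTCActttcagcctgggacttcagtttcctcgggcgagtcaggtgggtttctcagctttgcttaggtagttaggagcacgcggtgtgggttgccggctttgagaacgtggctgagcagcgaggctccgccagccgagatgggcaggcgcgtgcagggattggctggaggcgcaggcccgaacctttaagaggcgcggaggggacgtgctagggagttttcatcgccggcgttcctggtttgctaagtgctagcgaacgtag
Ucp1, chr8:83290098-83290397, + strand: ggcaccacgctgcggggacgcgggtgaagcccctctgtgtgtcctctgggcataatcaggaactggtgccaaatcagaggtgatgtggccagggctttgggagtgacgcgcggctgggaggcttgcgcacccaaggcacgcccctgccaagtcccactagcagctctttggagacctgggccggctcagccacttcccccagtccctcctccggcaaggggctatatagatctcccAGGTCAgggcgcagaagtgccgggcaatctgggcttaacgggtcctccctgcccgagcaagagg
Cox8b, chr7:140900397-140900696, - strand: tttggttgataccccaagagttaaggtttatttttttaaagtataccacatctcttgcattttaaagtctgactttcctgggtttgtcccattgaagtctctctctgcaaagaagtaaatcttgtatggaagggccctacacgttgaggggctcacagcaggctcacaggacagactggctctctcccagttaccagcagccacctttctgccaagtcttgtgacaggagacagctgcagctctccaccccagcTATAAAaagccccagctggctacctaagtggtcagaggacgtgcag
The half-site began at base -110 for Acot12 (on the opposite strand), -213 for Mfsd2a and -14 for Ucp1, counted from the annotated start as base 1. The TATAAA of Cox8b began at base 5, after the annotated start, and is given as a match of letters only. Of the 120 called genes, 100 have a promoter in the table. AGGTCA was found in 8 of 46 genes higher in BAT (17.4%), in 4 of 39 that fell in BAT (10.3%) and in 2 of 14 that rose in sWAT (14.3%), against 18.1% of all 27025 genes with a promoter. TATAAA was found in 8.7%, 12.8% and 14.3% of these groups, against 15.7% of all genes. The cAMP response element TGACGTCA was found in 1 promoter of these groups, that of Nup133, which fell in BAT, against 2.03% of all genes. These shares are descriptions of 300 bases per gene, and a gene with several starts counted once, as holding a motif if any of its promoters did.

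Genes with the larger rise in BAT included secreted factors, receptors and enzymes of lipid metabolism. The largest interaction was that of Bmp8b, a TGF-beta family ligand made by brown adipocytes that raises their response to noradrenaline. Its intensities were 1352, 1052 and 1854 in BAT at 6°C, against 58.1, 26.2 and 42.5 in BAT at 28°C, and 28.6, 28.7 and 37.2 in sWAT at 6°C, against 29.5, 18.5 and 14.3 in sWAT at 28°C. All 3 cold BAT arrays stood far above every other array, and the sWAT arrays of both temperatures overlapped. That is a 34.4-fold rise in BAT (5.10 log2) and a change of 0.66 log2 in sWAT that did not pass the threshold (adjusted p = 0.403). The interaction was 4.45 ± 0.43 log2 (SE; adjusted p = 0.000485), and the other probe set of Bmp8b gave 3.38 ± 0.40 (adjusted p = 0.00154). That other, brighter probe set had 0.82 log2 in sWAT, not called (adjusted p = 0.209). By qRT-PCR the study reported a cold induction of Bmp8b in sWAT as well as in BAT.

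Acot12, an acyl-CoA thioesterase that splits acetyl-CoA, had intensities of 444, 396 and 377 in BAT at 6°C, against 20.2, 27.5 and 29.1 in BAT at 28°C, and 34.6, 17.7 and 29.5 in sWAT at 6°C, against 17.1, 15.2 and 16.96 in sWAT at 28°C. The cold sWAT arrays were just above the warm ones, without overlap, but stayed at the low end of the scale, and the interaction was 3.32 ± 0.30 (adjusted p = 0.000242; 2 of 3 probe sets called). Mfsd2a, a transporter of lysophosphatidylcholine, had 517, 347 and 851 in BAT at 6°C, against 81.3, 100.5 and 88.8 in BAT at 28°C, and 180, 183 and 146 in sWAT at 6°C, against 606, 360 and 314 in sWAT at 28°C. In neither depot did cold and warm arrays overlap, and the cold ones were higher in BAT and lower in sWAT. Its BAT response was 2.57 log2 and its sWAT response -1.28 log2 (adjusted p = 0.0296 for sWAT, short of the threshold), and the interaction was 3.85 ± 0.39 (adjusted p = 0.000574). St3gal5, the synthase of the ganglioside GM3, had 1167, 920.5 and 1118 in BAT at 6°C, against 138, 128 and 109 in BAT at 28°C, and 149, 98.2 and 111 in sWAT at 6°C, against 76.9, 81.9 and 68.8 in sWAT at 28°C. Cold arrays exceeded warm ones in both depots, by far more in BAT (interaction 2.46 ± 0.26, adjusted p = 0.000735; both probe sets called).

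Lgr6, a receptor of R-spondins that amplifies Wnt signals, had 2203, 2064 and 3501 in BAT at 6°C, against 643, 347 and 301 in BAT at 28°C, and 493, 397 and 378 in sWAT at 6°C, against 548, 1337 and 702 in sWAT at 28°C. The cold arrays were the higher ones in BAT and the lower ones in sWAT (interaction 3.56 ± 0.49, adjusted p = 0.00311, with 1 of 2 probe sets called). For Fgf9, a fibroblast growth factor, the BAT response was 2.96 log2 and the sWAT response -0.19 log2 on the called one of its 2 probe sets, while the brighter gave an interaction of 1.89 that was not called (adjusted p = 0.0124). For Ntsr2, a neurotensin receptor, the responses were 2.79 log2 in BAT and -0.05 log2 in sWAT. Fhdc1, a formin of the cytoskeleton, had 3.09 log2 in BAT and -0.90 log2 in sWAT, on intensities of 90.66, 88.05 and 109.9 in BAT at 6°C, against 12.45, 11.98 and 9.51 in BAT at 28°C. The brighter probe set of Fhdc1 was also called, at 1.93 (1.74 log2 in BAT and -0.19 log2 in sWAT). Rims2, a scaffold of the secretory active zone, was called on 1 of its 5 probe sets (3.86 log2 in BAT and 0.47 log2 in sWAT).

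Further large higher interactions were those of Ccdc184 (2.68), 1700061I17Rik (2.60), Vil1, an actin bundler (2.5), Ddo, D-aspartate oxidase (2.48), and Iqch (2.24). Ddo was called on 1 of its 4 probe sets, the only one with a positive interaction. Its brightest probe set gave -1.84 (adjusted p = 0.0244), and the mean of its probe sets gave -0.61, also with the opposite sign (adjusted p = 0.463). Serpina12, the adipokine vaspin, was called on its dim probe set only (2.67 ± 0.34, adjusted p = 0.0019). On its brighter probe set the rises were 3.74 log2 in BAT and 2.54 log2 in sWAT, both called, and the interaction was 1.20 ± 0.47 (adjusted p = 0.25). Alpl, tissue-nonspecific alkaline phosphatase, had 2704, 2224 and 3450 in BAT at 6°C, against 693, 534 and 611 in BAT at 28°C, and 862, 760 and 821 in sWAT at 6°C, against 626, 807 and 716 in sWAT at 28°C. Only in BAT did its cold and warm arrays stand apart (interaction 1.98 ± 0.28, adjusted p = 0.00325). All 3 probe sets of Sorl1, a sorting receptor, were called, with interactions of 1.71 to 2.17. Of the 65 higher probe sets, 31 had a mean under 7 log2 in at least 1 of the 4 groups, near the array median of 6.97 to 7.20 log2.

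**Figure D2:**
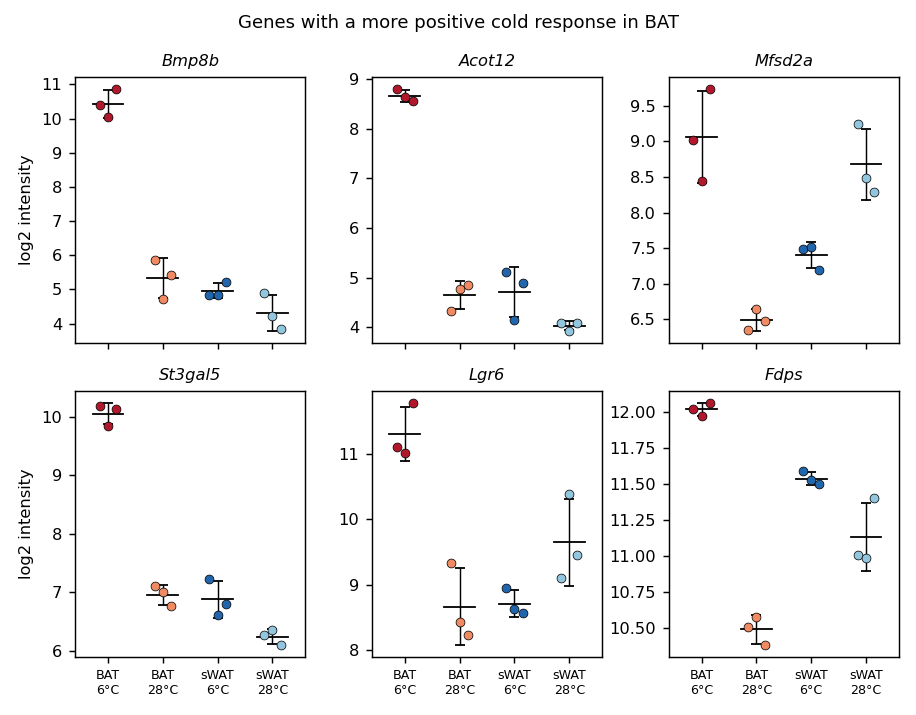
Log2 intensity of 6 genes whose cold response was more positive in BAT, 1 point per array, with the mean (line) and SD (bars) of 3 arrays for each of BAT at 6°C, BAT at 28°C, sWAT at 6°C and sWAT at 28°C. For Bmp8b, Acot12 and St3gal5 the cold BAT arrays stand alone at the top, for Mfsd2a the sWAT arrays move the other way, and for Fdps the warm BAT arrays stand alone at the bottom.

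The list of cholesterol synthesis and uptake contributed 1 called gene, and none was called among 24 genes of fatty acid synthesis and elongation. Of 19 measured genes of cholesterol synthesis and uptake, Fdps, farnesyl diphosphate synthase, was the only one called in the interaction (5.26%, against 0.467% of all genes). It had 4169, 4022 and 4274 in BAT at 6°C, against 1459, 1531 and 1339 in BAT at 28°C, and 3082, 2952 and 2898 in sWAT at 6°C, against 2060, 2034 and 2712 in sWAT at 28°C. Both depots had higher cold arrays, with the wider gap in BAT (1.53 log2, against 0.40 log2 in sWAT that was not called), and the interaction was 1.12 ± 0.19 (adjusted p = 0.00858). Its other probe set had an interaction of the opposite sign, and the mean of both was not called (adjusted p = 0.162). In the BAT response 6 members were called (31.6%, against 2.80% of all genes called higher), all as rises, among them Cyp51 (1.08 log2), Nsdhl (1.06) and Idi1 (0.63), enzymes of the sterol pathway, and in the sWAT response none, where 0.72% of all genes were called higher. The interaction was positive for 17 of the 19, with a median of 0.47, against -0.0062 for all 18193 genes measured.

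In the list of peroxisomes, which shorten very long fatty acids, 2 of 28 genes were called (7.14%, against 0.467% of all genes). These were the thioesterases Acot12, a mainly cytosolic enzyme that the list holds, and Acot8, both higher in BAT. Eci3, a peroxisomal enoyl-CoA isomerase outside the list, was called lower (-2.88). Acot8 had 2007, 1949 and 2133 in BAT at 6°C, against 866, 736 and 863 in BAT at 28°C, and 919, 870 and 816 in sWAT at 6°C, against 701, 691 and 653 in sWAT at 28°C (interaction 0.96 ± 0.15, adjusted p = 0.00572). The median of the list was -0.21, with 8 of 28 positive and 20 negative. Ehhadh, the peroxisomal bifunctional enzyme, rose in BAT (2.07 log2), had 1.65 log2 in sWAT short of the threshold (adjusted p = 0.0143), and had no called difference (0.42, adjusted p = 0.753).

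Genes that rose in sWAT with no called change in BAT included several of the thermogenic mitochondria. Ucp1 had intensities of 21401, 20303 and 21595 in BAT at 6°C, against 17177, 16328 and 16570 in BAT at 28°C, and 13988, 13122 and 15777 in sWAT at 6°C, against 1342, 732 and 1500 in sWAT at 28°C. Cold and warm arrays did not overlap in either depot, but the cold sWAT arrays came close to the warm BAT arrays. This was a 12.5-fold rise in sWAT (3.65 log2) and a 1.26-fold difference in BAT (0.34 log2, adjusted p = 0.523), and the interaction was -3.31 ± 0.42 (adjusted p = 0.0019). In BAT the probe set lay near the top of the scale, with only 4 probe sets of higher mean at 6°C and 54 at 28°C. Whether the arrays could have shown a larger rise there was not tested. By qRT-PCR the study reported a cold induction of Ucp1 in every depot it measured, BAT included. Ucp1 was also the one gene called in mWAT, at 3.02 log2 (1 probe set of 45037, 0.00222%). In these bulk samples a lower level cannot be divided between fewer cells of a type and less RNA per cell.

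Fabp3, a fatty acid-binding protein of oxidative tissues, had 18950, 18261 and 18569 in BAT at 6°C, against 18607, 17402 and 18347 in BAT at 28°C, and 10800, 5889 and 12153 in sWAT at 6°C, against 712, 1138 and 998 in sWAT at 28°C. Its BAT arrays overlapped between temperatures, and in sWAT the gap was 9.85-fold (interaction -3.26 ± 0.43, adjusted p = 0.00254; 1 of 2 probe sets called). Cox7a1, a subunit of cytochrome c oxidase found in muscle and brown fat, had 10667, 10281 and 10858 in BAT at 6°C, against 10346, 10352 and 10094 in BAT at 28°C, and 5593, 4235 and 5564 in sWAT at 6°C, against 522, 655 and 517 in sWAT at 28°C. Again the BAT arrays overlapped while those of sWAT were 9.06-fold apart (interaction -3.13 ± 0.35, adjusted p = 0.00106). Ppara, a nuclear receptor that drives fatty acid oxidation, had 3525, 2292 and 2581 in BAT at 6°C, against 3327, 2728 and 3039 in BAT at 28°C, and 501, 479 and 541 in sWAT at 6°C, against 59.4, 60.9 and 68.1 in sWAT at 28°C. In sWAT this was an 8.08-fold rise that left every array below the BAT arrays (interaction -3.15 ± 0.38, adjusted p = 0.00154; 2 of 3 probe sets called).

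Kng1, the precursor of kinins, was called on 1 of 2 probe sets (0.27 log2 in BAT and 3.03 log2 in sWAT), and its other probe set had an interaction of the opposite sign. Cideb, a lipid droplet protein, had -0.90 log2 in BAT, not called, and 2.16 log2 in sWAT, which gave -3.06 ± 0.52 (adjusted p = 0.00881). Cox8b, a further cytochrome c oxidase subunit, had 17107, 17329 and 17131 in BAT at 6°C, against 16870, 15960 and 16342 in BAT at 28°C, and 12458, 10808 and 12107 in sWAT at 6°C, against 2990, 2960 and 4167 in sWAT at 28°C. The sWAT groups were 3.54-fold apart (interaction -1.75 ± 0.26, adjusted p = 0.00458). Acaa2, the last thiolase of mitochondrial fatty acid oxidation, was called on all 3 of its probe sets (-2.01 to -1.14). Pdk4, a kinase that shuts pyruvate out of the citrate cycle, had a response of 0.08 log2 in BAT and 1.30 log2 in sWAT (interaction -1.22 ± 0.20, adjusted p = 0.00631). Coq8a, needed for ubiquinone synthesis, had -0.32 log2 in BAT and 1.57 log2 in sWAT on the called one of its 2 probe sets.

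The median level of these 22 probe sets was 12.88 log2 in BAT at 6°C and 12.69 log2 in BAT at 28°C, against 11.34 log2 in sWAT at 6°C and 9.50 log2 in sWAT at 28°C. By construction a negative interaction is a smaller BAT-minus-sWAT difference at 6 than at 28°C, and the median of that difference was 1.08 log2 at 6°C and 3.17 log2 at 28°C. BAT was called above sWAT in 15 of the 22 at 6°C and in 21 at 28°C, where over all probe sets 23.7% were called at 6°C (13.4% higher and 10.3% lower in BAT) and 22.9% at 28°C (13.2% higher and 9.66% lower). In 10 of the 22 (45.5%) the mean of warm BAT exceeded 13 log2, as in 1.56% of all probe sets, and the highest value of any array was 14.59 log2. The table gives no measure of probe saturation, so whether the scale could have shown a further rise in BAT was not tested.

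**Figure D3:**
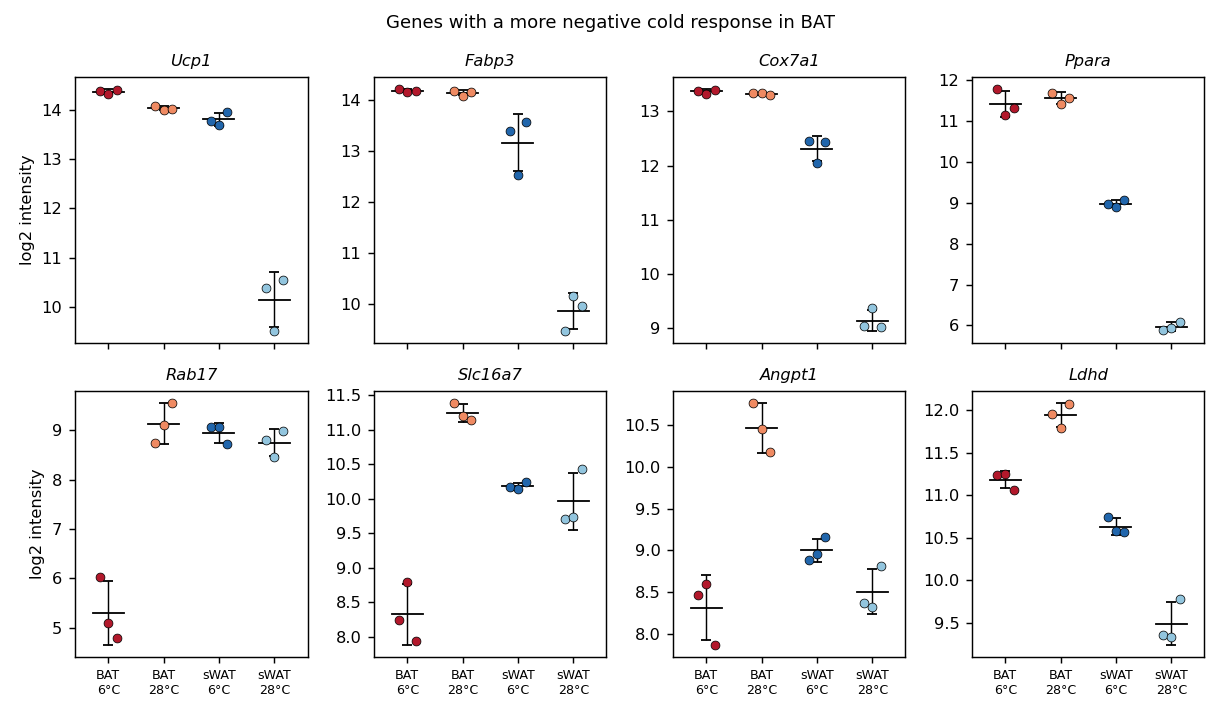
Log2 intensity of 8 genes whose cold response was more negative in BAT, 1 point per array, with the mean (line) and SD (bars) of 3 arrays for each of BAT at 6°C, BAT at 28°C, sWAT at 6°C and sWAT at 28°C. In the upper row, Ucp1, Fabp3, Cox7a1 and Ppara, the warm sWAT arrays stand alone at the bottom; in the lower row Rab17 and Slc16a7 are lowest in cold BAT, Angpt1 is highest in warm BAT, and Ldhd falls in BAT and rises in sWAT.

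The larger arm of the lower genes fell in BAT and had no called change in sWAT. Rab17, a small GTPase of membrane traffic, had 64.8, 34.1 and 27.5 in BAT at 6°C, against 426, 556 and 755 in BAT at 28°C, and 536, 536 and 423 in sWAT at 6°C, against 447, 352 and 511 in sWAT at 28°C. Cold BAT lay below all other arrays, and the sWAT arrays overlapped. The fall in BAT was 14.3-fold (interaction -4.04 ± 0.52, adjusted p = 0.00218; 1 of 2 probe sets called). Slc16a7, a transporter of pyruvate and lactate, had 302, 446 and 245 in BAT at 6°C, against 2677, 2342 and 2248 in BAT at 28°C, and 1153, 1127 and 1205 in sWAT at 6°C, against 838, 852 and 1384 in sWAT at 28°C. It changed places between the depots, highest in warm BAT and lowest in cold BAT (interaction -3.13 ± 0.37, adjusted p = 0.00154).

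Snhg11, a non-coding host of small nucleolar RNAs, had 248, 325 and 112 in BAT at 6°C, against 2414, 2700 and 3354 in BAT at 28°C, and 2830, 3421 and 1942 in sWAT at 6°C, against 2942, 2028 and 2568 in sWAT at 28°C (interaction -3.85 ± 0.52, adjusted p = 0.00266; both probe sets called). D630004K10Rik (-3.34), Ivns1abp (-3.08, on 1 of 3 probe sets, the brightest at -0.60 with adjusted p = 0.192), Car1, a carbonic anhydrase (-3.08), and Eci3, a peroxisomal enoyl-CoA isomerase (-2.88), fell by 2.42 to 2.83 log2 in BAT. B3galt2, a galactosyltransferase, was called on 1 of 3 probe sets (-4.10 ± 0.65, adjusted p = 0.0063), while its brightest probe set gave -2.81 ± 0.71 (adjusted p = 0.06). Angpt1, the ligand of the endothelial receptor Tie2, had 354, 389 and 234 in BAT at 6°C, against 1748, 1406 and 1160 in BAT at 28°C, and 474, 497 and 570 in sWAT at 6°C, against 332, 320 and 451 in sWAT at 28°C. Both of its probe sets were called, the brighter at -2.65 ± 0.38 (adjusted p = 0.00387), with cold arrays below the warm ones in BAT and above them in sWAT. Il18, a cytokine, fell 2.28-fold in BAT and had 0.09 log2 in sWAT (interaction -1.27 ± 0.19, adjusted p = 0.00484).

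The largest interaction of all, -7.57 ± 1.19 (adjusted p = 0.00568), belonged to a probe set that names no gene here. Its mean was 2.78 log2 in BAT at 6°C, against 10.57 log2 in BAT at 28°C, and 3.72 log2 in sWAT at 6°C, against 3.94 log2 in sWAT at 28°C. Only warm BAT rose above the low end of the scale. The one gene with both responses called in opposite directions was Ldhd, D-lactate dehydrogenase, with 2423, 2431 and 2139 in BAT at 6°C, against 3978, 3543 and 4312 in BAT at 28°C, and 1713, 1528 and 1524 in sWAT at 6°C, against 658, 648 and 879 in sWAT at 28°C. No cold array overlapped a warm one in either depot, and the changes were -0.76 log2 in BAT and 1.14 log2 in sWAT (interaction -1.89 ± 0.24, adjusted p = 0.0019; both probe sets called).

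By lists, brown fat thermogenesis had the most called members, 8 of 28 (28.6%, against 0.467% of all genes). Bmp8b was higher, and Ucp1, Fabp3, Ppara, Cox7a1, Kng1, Acot11 (-2.03) and Cox8b were lower. In BAT 5 of the 28 rose (17.9%, against 2.80% of all genes) and none fell, and in sWAT 18 rose (64.3%, against 0.72%) and none fell. The median response of the list was 0.36 log2 in BAT and 1.77 log2 in sWAT, and the median interaction -1.49. The list was chosen with results of these samples known, so its direction is no independent evidence. Other genes of the thermogenic program came short of the threshold, with Otop1 at -2.06 (95% interval -2.89 to -1.23, adjusted p = 0.0163), Plin5 at -1.64 (-2.26 to -1.03, adjusted p = 0.0115), Cidea at -1.51 (-2.23 to -0.78, adjusted p = 0.0401) and Slc27a2 at -2.43 (-3.46 to -1.39, adjusted p = 0.0219). Ppargc1a, the coactivator of mitochondrial biogenesis, had -0.77 (-1.96 to 0.43, adjusted p = 0.611).

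The lists of mitochondrial pathways had few called members and mostly negative interactions. In mitochondrial fatty acid oxidation 1 of 19 was called (Acaa2) and 18 were negative, with a median response of 0.15 log2 in BAT and 0.80 log2 in sWAT. All 24 genes of the citrate cycle and pyruvate dehydrogenase were negative, from -1.22 (Pdk4, the only one called) to -0.10 (Pdha1), 18 of them at an unadjusted p under 0.05, with medians of 0.05 log2 in BAT and 0.56 log2 in sWAT. Of 73 genes of oxidative phosphorylation 72 were negative, and Cox7a1 and Cox8b were called, by the brightest probe set of each gene. A dimmer probe set of Ndufs4, a subunit of complex I, was called the other way (1.35, adjusted p = 0.00627), while its brightest gave -0.30 (adjusted p = 0.482). The median of that list was 0.02 log2 in BAT and 0.30 log2 in sWAT. All 20 genes of branched-chain amino acid breakdown were negative (median -0.50), and none was called in limma, with 10 at an unadjusted p under 0.05. Ubiquinone synthesis was more mixed, with 8 of 12 negative (median -0.11) and 4 at an unadjusted p under 0.05. None of its genes was called on the brightest probe set, and 1 was called on another. Of all 18193 genes, 0.467% were called, 9217 were negative, and 14.9% had an unadjusted p under 0.05. Members of a pathway share arrays and regulation and are not independent. In BAT at 28°C the list mean was 13.18 log2 for fatty acid oxidation, 13.26 for the citrate cycle and 13.44 for oxidative phosphorylation. It was 12.29 log2 for branched-chain amino acid breakdown and 11.74 log2 for ubiquinone synthesis. Whether the scale could have shown a further rise of these lists in BAT was not tested.

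**Figure D4:**
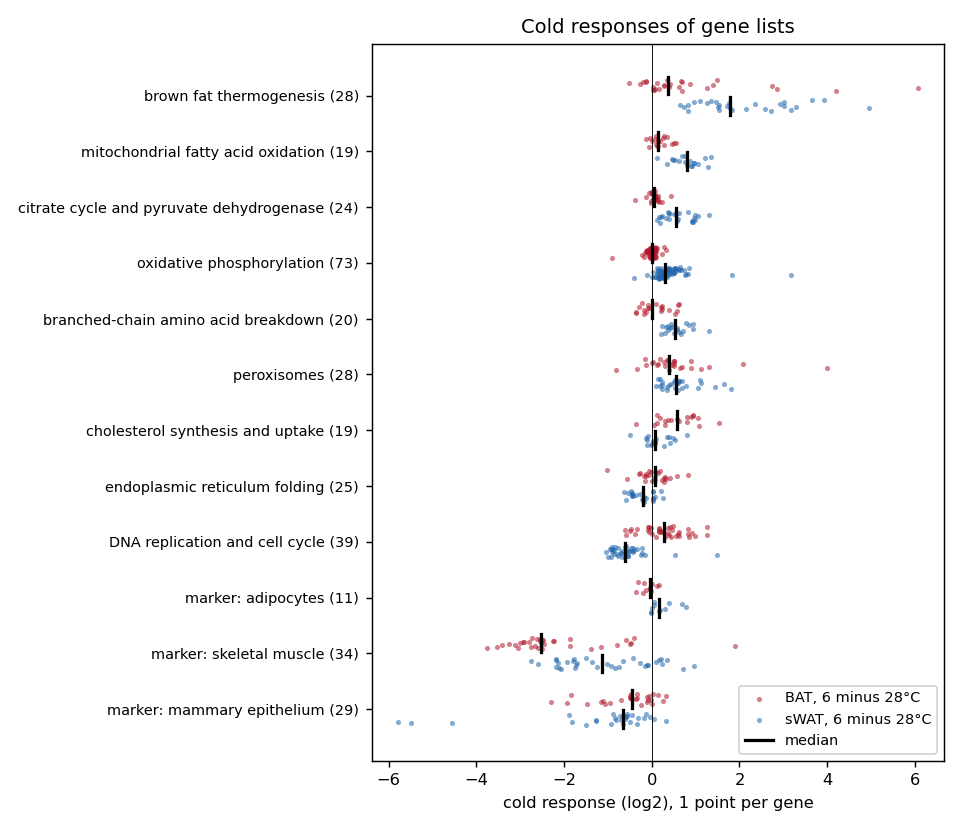
Cold response (6 minus 28°C, log2) of the genes of 12 lists, 1 point per gene with the number of measured genes in brackets, in BAT (red, upper row of each list) and sWAT (blue, lower row); black bars are medians. In the thermogenesis list the median was 0.36 in BAT and 1.77 in sWAT, in the mitochondrial lists BAT points lie around 0 with sWAT points to their right, and the cholesterol and cell cycle lists lie the other way round.

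A mostly positive sign was found for a pair of further lists, neither with a called member. Among 39 proliferation genes (replication and mitosis), 34 had a positive interaction (median 0.98), with median responses of 0.29 log2 in BAT and -0.60 log2 in sWAT, but none was called in limma and 4 (10.3%) had an unadjusted p under 0.05, against 14.9% of all genes. The list mean lay between 8.35 and 8.41 log2 on the arrays of sWAT at 6°C, inside the range of 8.98, 9.91 and 7.92 log2 in sWAT at 28°C. On the same warm sWAT arrays the mean of 15 B cell genes was 10.93, 10.11 and 8.82 log2 and that of 34 muscle genes 9.07, 10.23 and 7.06 log2, and their part in this list was not tested. Of 25 genes of folding in the endoplasmic reticulum, 18 were positive (median 0.28) and 9 had an unadjusted p under 0.05, led by Manf, a stress-induced secreted factor (1.29, adjusted p = 0.0213). In the lists of secreted factors, Bmp8b was the called gene with a higher value, and Angpt1 and Il18 those with lower ones among 48 (6.25% called, against 0.467% of all genes). In limma none was called among 42 genes of adrenergic and cAMP signalling, 34 of the proteasome and 26 depot identity transcription factors, of which 7 (16.7%), 0 and 5 (19.2%) had an unadjusted p under 0.05, against 14.9% of all genes.

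Some genes responded in both depots without a called difference. Of 18193 genes, 908 had a called rise in BAT and 163 in sWAT, and 47 had both on the same probe set. A called fall was found for 619 genes in BAT and 5 in sWAT, and for 1 in both on the same probe set. That gene was Fam20c, a kinase of secreted proteins (-2.77 log2 in BAT and -1.63 log2 in sWAT, interaction -1.14, adjusted p = 0.0704). Elovl3, which elongates fatty acids in cold-activated brown fat, had 7221, 6835 and 8019 in BAT at 6°C, against 147, 89.7 and 96.7 in BAT at 28°C, and 2358, 1294 and 2827 in sWAT at 6°C, against 25.0, 57.4 and 201 in sWAT at 28°C. These were rises of 67.8-fold and 31.0-fold, and the 95% interval of the difference, -0.74 to 2.997 log2, was wide (adjusted p = 0.64). Drd1, a dopamine receptor, and Rdh16, a retinol dehydrogenase, had interactions within 0.02 log2 of 0, with intervals of -0.65 to 0.64 and -1.09 to 1.06. The fatty acid receptor Ffar4 rose by 2.75 log2 in BAT and 1.71 log2 in sWAT (interaction 1.04, 0.40 to 1.69, adjusted p = 0.106). Letm1, a cation exchanger of the inner mitochondrial membrane, was the gene with both rises called and a called interaction on 1 of its 4 probe sets (1.55), while its brightest probe set gave -0.14 (-0.62 to 0.34, adjusted p = 0.87).

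Genes of other cells of the dissected pads differed between the arrays. The mean of 34 skeletal muscle genes was 7.31 to 9.32 log2 in BAT at 6°C, against 8.03 to 11.85 log2 in BAT at 28°C, and 6.30 to 10.01 log2 in sWAT at 6°C, against 7.06 to 10.23 log2 in sWAT at 28°C. The groups overlapped, 30 of the 34 had a negative interaction, with a median of -0.93, and none was called in limma, with 2 at an unadjusted p under 0.05. The mean of 29 mammary epithelium genes was 5.18 to 5.71 log2 in BAT at 6°C, against 4.99 to 7.14 log2 in BAT at 28°C, and 9.25 to 9.46 log2 in sWAT at 6°C, against 9.76 to 11.24 log2 in sWAT at 28°C. The milk protein Csn2 carried the widest spread, 73.9, 12870 and 1118 in sWAT at 28°C, and its interaction of 3.51 had an interval of -1.43 to 8.44. The mean of 11 adipocyte genes was 13.22 to 13.32 log2 in BAT at 6°C, against 13.30 to 13.38 log2 in BAT at 28°C, and 13.42 to 13.46 log2 in sWAT at 6°C, against 13.12 to 13.37 log2 in sWAT at 28°C. Of these 11 genes 10 had a negative interaction (median -0.34) and 6 an unadjusted p under 0.05, and their part in the lower interactions was not tested. With the muscle mean as a covariate 38 higher and 83 lower probe sets were called, 36 and 71 of them also called without it. With the mammary mean there were 26 and 41, with 25 and 38 also called without it. The part of these other cells in the remaining results was not tested. In both fits Bmp8b, Acot12, Mfsd2a, St3gal5, Ucp1, Fabp3, Cox7a1, Ppara, Rab17, Slc16a7, Snhg11 and Ldhd were still called, and these genes also kept the call without each of the 18 arrays in turn. Of the 40 called probe sets that the rule for named genes chose, 25 lost the call without at least 1 array, with adjusted p up to 0.0319 and no change of sign.

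**Figure D5:**
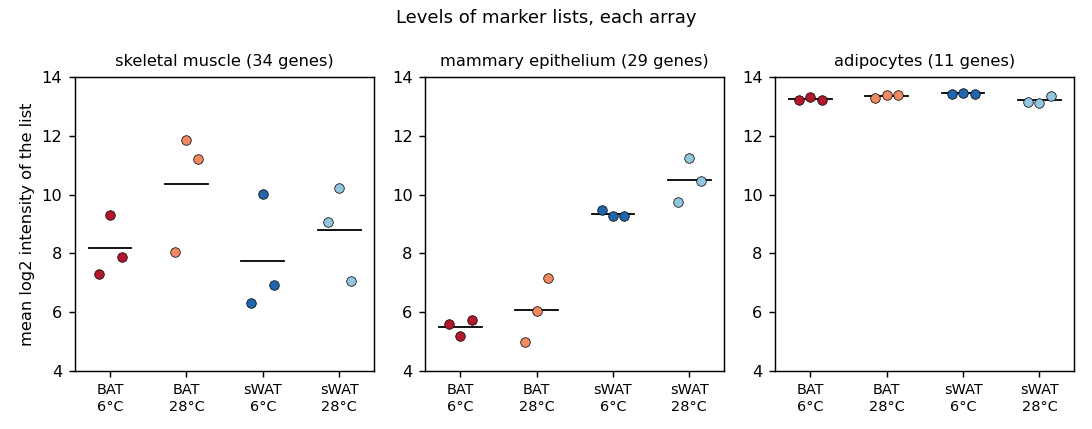
Mean log2 intensity of the genes of 3 marker lists on each of the 12 arrays (points) with the mean of each group (line), for skeletal muscle, mammary epithelium and adipocytes. Muscle genes spread widely within groups of both depots, mammary genes are high in sWAT alone and highest in warm sWAT, and adipocyte genes lie between 13.12 (warm sWAT) and 13.46 (cold sWAT) on all 12 arrays.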

How the data were processed

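RNA from BAT, sWAT and mWAT of cold and warm mice was hybridised to Affymetrix mouse arrays after NuGEN amplification. The deposited intensity values are on a linear scale, and the authors had adjusted background, summarised probe sets and normalized with the Bioconductor package affy. The algorithm is not given in the sources used here, and the methods and legends name different array types. The table held 45101 probe sets, of which 64 controls were left out and 45037 tested. Of these 34945 name 1 gene (18193 genes), 932 several and 9160 none here. Array medians were 6.97 to 7.20 log2. Log2 intensities were fitted with limma 3.58.1 in R 4.3.3 to the means of 6 groups of 3 arrays (12 residual and 2.635 prior degrees of freedom), without filter or block. The interaction was the cold response of BAT minus that of sWAT, and calls had an adjusted p under 0.01 (Benjamini-Hochberg). The number of arrays limits the precision. Scripts were tested on simulated data.

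Named genes were the 15 largest called interactions in each direction, 1 probe set per gene, without overlap of cold and warm arrays in at least 1 depot; up to 4 called members of each list; the genes the study names for its arrays; and genes called in both depots. The other genes named (list extremes, Zic1, Hoxc10, Adipoq, Sorl1, Coq8a, Acot11, Ehhadh and Manf among them) were chosen after their values were seen. The members and the 35 lists were chosen with earlier results of these data known. A gene in a list had its brightest probe set. Alternatives were a threshold of 0.05, a minimum change of 2-fold, only the 12 arrays, quantile normalization, median centring, a filter on dim probe sets, a variance trend with robust estimates, the mean of a gene's probe sets, a pseudocount of 32, muscle or mammary list means as covariates, and leaving out each array. Promoters came from RefSeq (GRCm38.p6).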

Additional observations from a re-analysis of the deposited data

Results flagged for a closer look

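Parts of the rule for named genes take only probe sets past the threshold, so the count below was partly fixed by that choice. Over all probe sets, 163 of 45037 were called (0.362%). Called probe sets named outside the rule, such as those of Sorl1, Coq8a and Acot11, are not listed. For 40 probe sets chosen by the rule, the test of the difference itself found unequal cold responses in BAT and sWAT (limma, adjusted p under 0.01). The interactions in log2 of those with the more positive response in BAT were Bmp8b 4.45, Fhdc1 3.99, Mfsd2a 3.85, Lgr6 3.56, Rims2 3.39, Bmp8b 3.38, Acot12 3.32, Fgf9 3.15, Ntsr2 2.84, Ccdc184 2.68, Serpina12 2.67, 1700061I17Rik 2.60, Vil1 2.5, Ddo 2.48, St3gal5 2.46, Iqch 2.24, Alpl 1.98, Fdps 1.12 and Acot8 0.96. Those with the more negative response in BAT were B3galt2 -4.10, Rab17 -4.04, Snhg11 -3.85, D630004K10Rik -3.34, Ucp1 -3.31, Fabp3 -3.26, Ppara -3.15, Slc16a7 -3.13, Cox7a1 -3.13, Ivns1abp -3.08, Car1 -3.08, Cideb -3.06, Eci3 -2.88, Kng1 -2.75, Angpt1 -2.68, Angpt1 -2.65, Ldhd -1.89, Cox8b -1.75, Acaa2 -1.36, Il18 -1.27 and Pdk4 -1.22.

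Outside the comparison of BAT and sWAT, Ucp1 was the one probe set called in mWAT, with a cold response of 3.02 log2.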

How the results depend on the processing

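The counts of 65 higher and 98 lower probe sets became 314 and 451 at an adjusted p of 0.05, 108 and 172 without dim probe sets (39 and 74 of them called before), 116 and 176 with a variance trend and robust estimates (64 and 92), and 167 and 223 with a pseudocount of 32 (64 and 98). With the muscle list mean as a covariate 38 higher ones were called, and with the mammary list mean 26 higher and 41 lower ones. Leaving out 1 array gave 19 to 95 higher and 25 to 132 lower probe sets. The other settings, a 2-fold minimum, 12 arrays only, quantile normalization, median centring and the mean of a gene's probe sets, kept both counts within 1.5 times, though with 12 arrays only 46 of the 65 and 68 of the 98 were among the 90 and 100 called. Of the 40 called probe sets chosen by the rule for named genes, 15 kept the call without each array in turn and with the other settings, except that 4 of them were too dim to be tested without dim probe sets, and 25 lost it without at least 1 array. With the mean of all its probe sets, Ddo turned to -0.61 (adjusted p = 0.463). The cause of these changes was not tested. No paired analysis was possible because the labels do not tie arrays of different groups to a mouse, and the numbers given to arrays only name them. Low signal limits the dimmest values, since 31 of the 65 higher and 37 of the 98 lower probe sets had a group mean under 7 log2.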
